A study of Homo sapiens with 2 samples.

Results

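The enzymes of glucuronidation described here are 10 genes of the 19607 in the expression table of CWR22rv1 cells. They are the UDP-glucuronosyltransferases UGT2B7, UGT2B10, UGT2B11, UGT2B15, UGT2B17, UGT2B28 and UGT1A6, the related transferase UGT8, and UGDH and UGP2, which supply the sugar donor. The genes were taken by symbol. The group was chosen by the control and Akt1/2 DKO reads of these same libraries, in which UGT2B genes were seen to differ, so the differences are given as a description, with no test.

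CWR22rv1 is a human prostate cancer cell line. The study asked what loss of the kinases AKT1 and AKT2 does in these cells, and RNA was sequenced from 1 library labelled wild type, the control, and 1 library labelled Akt1/2 knockout, here Akt1/2 DKO. The knockout was made with CRISPR/Cas9 plasmids against both genes and puromycin, followed by isolation of monoclonal cells. The number in the GEO title of the knockout library is also that of a clone in the study, but the control title carries a number of the same kind and the labels do not say what it stands for, so the clone is not taken as known. A difference between the libraries therefore cannot be told apart from a difference between a clone and its parental cells, or between 2 preparations of RNA, and no value here has a replicate check. In bulk RNA, fewer cells that express a gene and less RNA per cell cannot be told apart either.

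Glucuronidation joins glucuronic acid to a small lipophilic molecule, which becomes soluble in water and can leave the cell. UGP2 makes UDP-glucose, UGDH oxidizes it to UDP-glucuronic acid, and the UDP-glucuronosyltransferases of the endoplasmic reticulum pass the sugar to steroids, bile acids, phenols and drugs. In the prostate, UGT2B15 and UGT2B17 are known for conjugating dihydrotestosterone and its reduced metabolites, which ends their action as androgens. UGT8 belongs to the same superfamily but transfers galactose to ceramide, a step in the synthesis of galactolipids.

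The estimated reads came to 9970815 for control and 10718634 for Akt1/2 DKO after rounding to whole reads. Fold changes compare reads scaled by the TMM method of edgeR, which set the ratio of library sizes at 1.11. The 95% intervals are exact for how a gene's reads divide between the libraries, and counting error is all they cover. Below a floor of 3 reads, equal to 0.301 RPM (reads relative to the library total) in control and 0.280 RPM in Akt1/2 DKO, a library was set to 3. The fold against a library at 0, written as at least, is then a lower bound on the ratio of the observed reads. It leaves out counting error. The lower limit printed beside such a bound includes that error and is smaller. AKT1 had 2645 reads in control and 591 in Akt1/2 DKO, 4.96-fold lower, and AKT2 had 2362 and 667 reads, 3.93-fold lower, so both targeted transcripts were reduced in the library labelled as knockout but were still read.

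Promoters of the UGT2B genes are shown first because UGT2B15 and UGT2B10 had the lowest fold changes of the 10 genes and the UGT2B genes lie in 1 cluster on chromosome 4. The sequences are the 190 bases before the RefSeq transcription start (GRCh38.p14), read 5′ to 3′ on the strand of the gene. Capitals mark matches, on either strand, to AGAACA, the hexamer that each arm of a glucocorticoid receptor site resembles, and to TGTTTAC or TATTTAC, core letters bound by FOXA factors. UGT2B15 and UGT2B10 carried most UGT2B reads in control cells, UGT2B11 is the nearest relative of UGT2B10 among these promoters, and UGT2B7 is shown as the one without a match.
UGT2B15 (chr4:68670653-68670842, minus strand): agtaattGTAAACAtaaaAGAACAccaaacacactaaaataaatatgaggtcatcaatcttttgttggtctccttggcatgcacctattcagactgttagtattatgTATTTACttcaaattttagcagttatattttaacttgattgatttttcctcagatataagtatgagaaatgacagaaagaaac
UGT2B10 (chr4:68815804-68815993, plus strand): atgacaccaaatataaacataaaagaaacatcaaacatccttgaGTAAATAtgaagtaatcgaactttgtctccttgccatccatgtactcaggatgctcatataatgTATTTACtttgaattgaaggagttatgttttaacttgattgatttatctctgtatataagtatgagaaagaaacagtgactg
UGT2B11 (chr4:69214749-69214938, minus strand): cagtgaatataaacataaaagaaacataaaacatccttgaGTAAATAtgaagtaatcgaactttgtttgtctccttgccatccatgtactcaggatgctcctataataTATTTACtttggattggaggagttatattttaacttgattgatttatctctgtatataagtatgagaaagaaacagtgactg
UGT2B7 (chr4:69096284-69096473, plus strand): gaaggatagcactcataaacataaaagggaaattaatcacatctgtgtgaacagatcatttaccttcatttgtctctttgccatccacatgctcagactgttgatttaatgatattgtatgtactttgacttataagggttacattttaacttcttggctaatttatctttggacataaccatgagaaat

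A TATTTAC lay at nearly the same place in 3 of these promoters, from -83 to -77 relative to the start in UGT2B15 and from -82 to -76 in UGT2B10 and UGT2B11. UGT2B10 and UGT2B11 held another on the opposite strand, first base at -146 and -150. UGT2B15 alone of the 4 held an AGAACA, from -172 to -167, next to a TGTTTAC on the opposite strand from -183 to -177. The promoters of UGT2B10 and UGT2B11 were 91.2% identical to each other and 72.6% and 75.1% identical to that of UGT2B15, whereas that of UGT2B7 was 58.0% to 62.6% identical to the others. Over windows of 250 bases before to 50 after the start, the letters AGAACA were found in 14.8% of 35116 promoters, TGTTTAC in 3.42% and TATTTAC in 2.67%. Such matches are letters in a window, and binding was not measured. Promoters of 8 of the 10 genes were matched, and those of UGT2B17 and UGT2B28 are not analysed here. None of these 3 motifs was found in the windows of UGT8, UGDH or UGP2, and no matched promoter of the 10 genes held the inverted repeat of this hexamer with 3 letters between, which 10.8% of all promoters held with up to 3 mismatches.

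UGT2B15 (ENSG00000196620, chromosome 4 from 68646630 to 68670628, minus strand), a dihydrotestosterone-conjugating enzyme, had 621 reads in control and 6 in Akt1/2 DKO. It was 115-fold lower in Akt1/2 DKO (95% interval 52.4 to 314), or -6.84 on the log2 scale. It ranked 17th from the lowest among the 13318 genes for which both libraries together gave 10 or more reads. In that order, genes with 0 reads in a library stand at their bound. Its deposited FPKM, which scale fragments by transcript length and by the size of the library, were 29.76 in control and 0.27 in Akt1/2 DKO.

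UGT2B10 (ENSG00000109181, chromosome 4 from 68815993 to 68831196, plus strand), which conjugates the nitrogen of nicotine and related amines, had 167 reads in control and 0 in Akt1/2 DKO. It was at least 61.7-fold lower, and the interval began at 49.6. Both of these genes were expressed well above the detection floor in control cells and were at or near it in Akt1/2 DKO cells.

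The other UGT2B enzymes were barely read even in control. UGT2B17 (ENSG00000197888, chromosome 4 from 68537184 to 68568527, minus strand), the other main androgen-conjugating enzyme, had 12 reads in control and 0 in Akt1/2 DKO, at least 4.43-fold lower with a lower limit of 3.08. UGT2B7 (ENSG00000171234, chromosome 4 from 69051363 to 69112987, plus strand), which conjugates morphine, estrogens and fatty acids, had 7 and 0 reads, at least 2.59-fold lower with a lower limit of 1.60. UGT2B11 (ENSG00000213759, chromosome 4 from 69199951 to 69214731, minus strand) had 5 and 0 reads, at least 1.85-fold lower with a lower limit of 1.02.
UGT2B28 (ENSG00000135226, chromosome 4 from 69280499 to 69295050, plus strand) had 0 reads in both libraries, so it has no fold. None of the 4 genes with 12 or fewer control reads had a read in Akt1/2 DKO, so the depth limits how large their difference can be shown to be.

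The 6 UGT2B genes together had 812 reads in control and 6 in Akt1/2 DKO, 150-fold lower (95% interval 68.6 to 410). UGT2B15 made up 76.5% of the control reads of these genes, UGT2B10 20.6%, UGT2B17 1.48%, UGT2B7 0.862% and UGT2B11 0.616%. Without UGT2B15 the sum went from 191 reads to 0, at least 70.6-fold lower with a lower limit of 56.9. The lower level thus was not a matter of UGT2B15 alone.

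**Figure D1:**
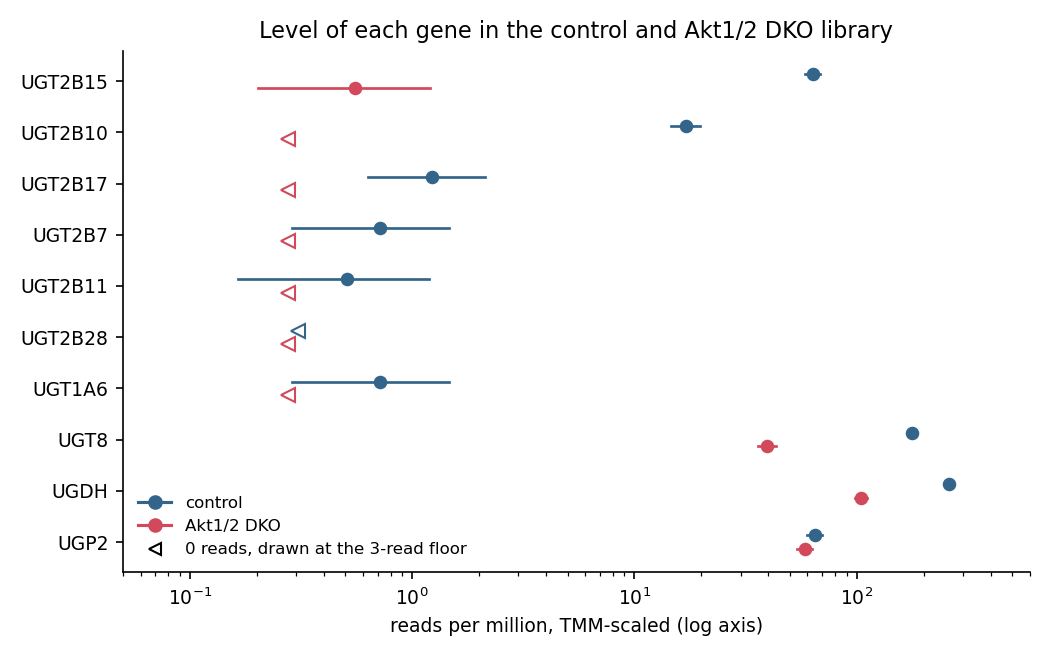
TMM-scaled reads of each of the 10 genes relative to library size (RPM, log x axis) in the control and Akt1/2 DKO libraries, where points are the values, bars the 95% interval for counting error and open triangles libraries with 0 reads, drawn at the floor of 3 reads. UGT2B15 and UGT2B10 are near or at the floor in Akt1/2 DKO only, and the points of UGP2 lie side by side. RPM here is relative to the TMM-scaled library size, so the floor stands at slightly different values than those given in the text. It is not scaled for length, so positions are compared within a gene.

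UGT2B genes are close copies, and the authors' estimates can divide reads between them. Over the 15 pairs of the 6 genes, the coding sequences of GENCODE release 29 were 84.1% to 97.0% identical, with a median of 85.5%. The closest pairs were UGT2B11 with UGT2B28 at 97.0% and UGT2B15 with UGT2B17 at 96.5%. Of the 100-base windows of the UGT2B15 transcript, 12.7% occurred exactly in another UGT transcript, always that of UGT2B17, and the longest run the 2 transcripts shared was 199 bases. The share was 2.73% for UGT2B10, 3.37% for UGT2B11 and 0.980% for UGT2B28, and no window of UGT2B7 was shared. The estimates of UGT2B15 and UGT2B17 in control were fractional but added up to a whole 633 reads. Their sum was 117-fold lower in Akt1/2 DKO (95% interval 53.4 to 320), so the difference of the pair does not depend on that division, whereas the 12 reads given to UGT2B17 are uncertain.

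The study's quantitative PCR primers for UGT2B17 show where the pair can be separated. They are printed with capitals at the bases that differ from the best site in UGT2B15, and both lie in coding exon 1 of 6.
Forward (chr4:68568184-68568213): tgaaaatGTtcgatagatggaCatatAgtA
Reverse (chr4:68568041-68568069): gacatcaaaTtttgactcttgtagtttTC
Both primers matched UGT2B17 without mismatch and gave an amplicon of 173 bases. The forward primer had 5 mismatches to UGT2B15 and the reverse primer had 3, so this amplicon lies in a stretch where the 2 transcripts differ, unlike the windows they share.

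UGT1A6 (ENSG00000167165, chromosome 2 from 233691607 to 233773300, plus strand), which conjugates simple phenols and serotonin, had 7 reads in control and 0 in Akt1/2 DKO, at least 2.59-fold lower with a lower limit of 1.60. The UGT1A enzymes come from 1 locus, where alternative first exons are spliced to common exons, and 58.2% of the 100-base windows of UGT1A6 were shared with other UGT1A transcripts. UGT1A1, the bilirubin-conjugating enzyme of the same locus, had 32 reads in control and 0 in Akt1/2 DKO, at least 11.8-fold lower with a lower limit of 9.07. The estimates of the 9 UGT1A genes in control added up to 42 reads, against 0 in Akt1/2 DKO, at least 15.5-fold lower with a lower limit of 12.1. The locus as a whole thus had no reads in Akt1/2 DKO, however reads were divided among its genes. One window of UGT1A6 held AGAACA with its first base at -243 and, on the opposite strand, at -160.

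Of the 14 UGT genes outside the 10, 2 had at least 10 reads, UGT1A1 and UGT3A2, and both were lower by more than 1.5-fold, beside 15.0% of all genes. UGT1A1 reached the minimum through control reads alone, so nothing is read from the count. UGT3A2, a transferase of the same superfamily that uses UDP-glucose or UDP-xylose, had 7 reads in control and 3 in Akt1/2 DKO, a log2 fold change of -1.37 whose interval, -3.95 to 0.76, includes no change. UGT1A3 had 3 and 0 reads, UGT2B4 had 1 and 0, and the other 10 had 0 in both libraries.

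UGT8 (ENSG00000174607, chromosome 4 from 114598455 to 114678224, plus strand), the ceramide galactosyltransferase, had 1738 reads in control and 429 in Akt1/2 DKO. It was 4.49-fold lower (95% interval 4.04 to 5.00), or -2.17 on the log2 scale, and ranked 336th from the lowest of the 13318 genes. It lies on chromosome 4 outside the UGT2B cluster and shares no 100-base window with another UGT transcript.

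The supply enzymes differed from each other. UGDH (ENSG00000109814, chromosome 4 from 39498755 to 39528311, minus strand), which makes UDP-glucuronic acid, had 2561 reads in control and 1137 in Akt1/2 DKO, 2.50-fold lower (95% interval 2.33 to 2.68), and ranked 767th. UGP2 (ENSG00000169764, chromosome 2 from 63840940 to 63891562, plus strand), which makes UDP-glucose for glycogen as well as for UGDH, had 635 and 636 reads, a log2 fold change of -0.15 (95% interval -0.31 to 0.01). The step that commits UDP-glucose to glucuronidation and to proteoglycan sugars was thus lower at the RNA level, and the interval of the step before it reached no change.

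With a minimum of 10 reads over both libraries, 6 of the 10 genes could be compared, and UGT2B15, UGT2B10, UGT2B17, UGT8 and UGDH, 5 of the 6, were at least 1.5-fold lower in Akt1/2 DKO, with 0 higher and UGP2 between. Of all 13318 genes, 15.0% were at least 1.5-fold lower and 15.9% at least 1.5-fold higher. The genes were proposed from these libraries, and UGT2B10 and UGT2B17 reached the minimum through control reads alone, so nothing is read from the count. At 2-fold the same 5 genes were lower, against 7.94% of all genes.

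**Figure D2:**
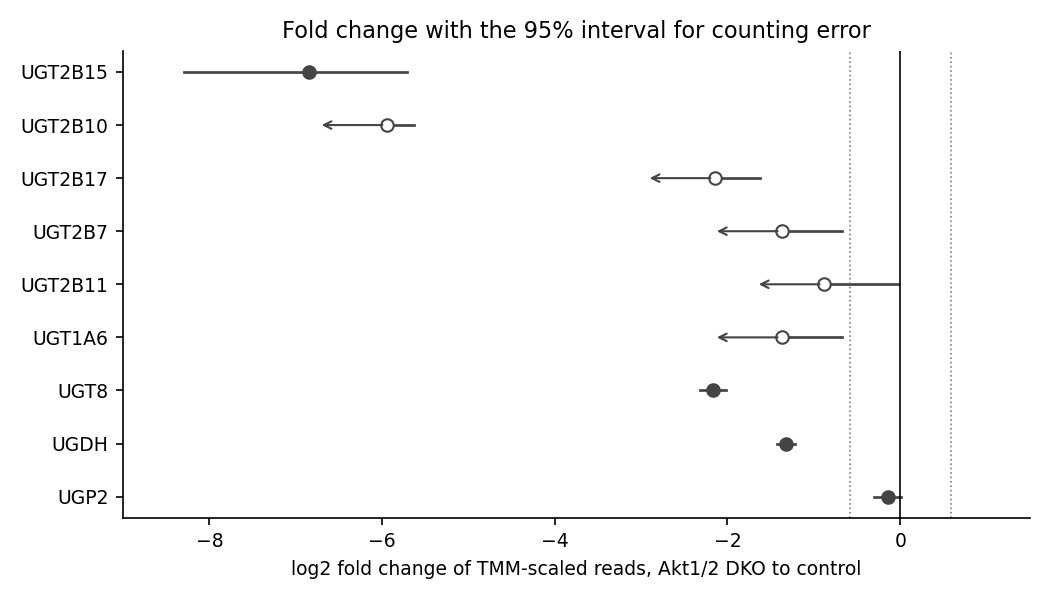
Log2 fold change of TMM-scaled reads, Akt1/2 DKO to control, for the 9 genes with a fold, where bars are the 95% interval for counting error, open circles with arrows are bounds from 0 reads in Akt1/2 DKO, and dotted lines mark 1.5-fold. UGT2B15 at -6.84 is the lowest point, UGT8 at -2.17 and UGDH at -1.32 have narrow bars, and the bar of UGP2 at -0.15 crosses 0.

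Levels of different genes were compared per length, in FPKM. In control the order was UGDH at 137.61, UGT8 at 54.28, UGP2 at 29.86 with UGT2B15 at 29.76, UGT2B10 at 8.75 and UGT2B17 at 0.59. The counting intervals of UGP2, 27.6 to 32.3 FPKM, and of UGT2B15, 27.5 to 32.2, overlapped, and those of the other neighbours in this order did not. UGT2B7 at 0.37, UGT1A6 at 0.30 and UGT2B11 at 0.24 followed, all resting on 7 or fewer reads. In Akt1/2 DKO the order was UGDH at 56.25, UGP2 at 27.74, UGT8 at 12.22 and UGT2B15 at 0.27, and the other 6 genes were listed at 0. UGT8 stood above UGP2 in control and below it in Akt1/2 DKO, and UGT2B15, which stood level with UGP2 in control, was about at the floor.

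The UGT2B genes lie together with UGT2A genes in a cluster on chromosome 4 from 68537184 to 69653249, 1116 kb long, and its expressed neighbours differed little. YTHDC1, a reader of methylated adenosine in RNA 187 kb to the left, had 989 reads in control and 1056 in Akt1/2 DKO, a log2 fold change of -0.05 (95% interval -0.18 to 0.07). SULT1B1, a sulfotransferase 67.9 kb to the right, had 40 and 38 reads, a log2 fold change of -0.22 (95% interval -0.90 to 0.45). Within 5 Mb of the centre of the cluster, 15 genes outside it had at least 10 reads, of which 2 were at least 1.5-fold lower and 0 higher. Over all genes 15.0% were lower and 15.9% higher, so the lower count does not set this region apart. The 2 were ALB, for albumin, with 1244 and 120 reads, 11.5-fold lower, and GC, for the vitamin D-binding protein, with 27 and 0 reads, at least 9.98-fold lower. Both are named after their values were seen, and GC reached the minimum through control reads alone. Both encode proteins of the plasma that the liver makes. The median log2 fold change was 0.04 over 414 genes of chromosome 4 with at least 50 reads and 0.00 over all 11754 such genes, so chromosome 4 showed no general shift.

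**Figure D3:**
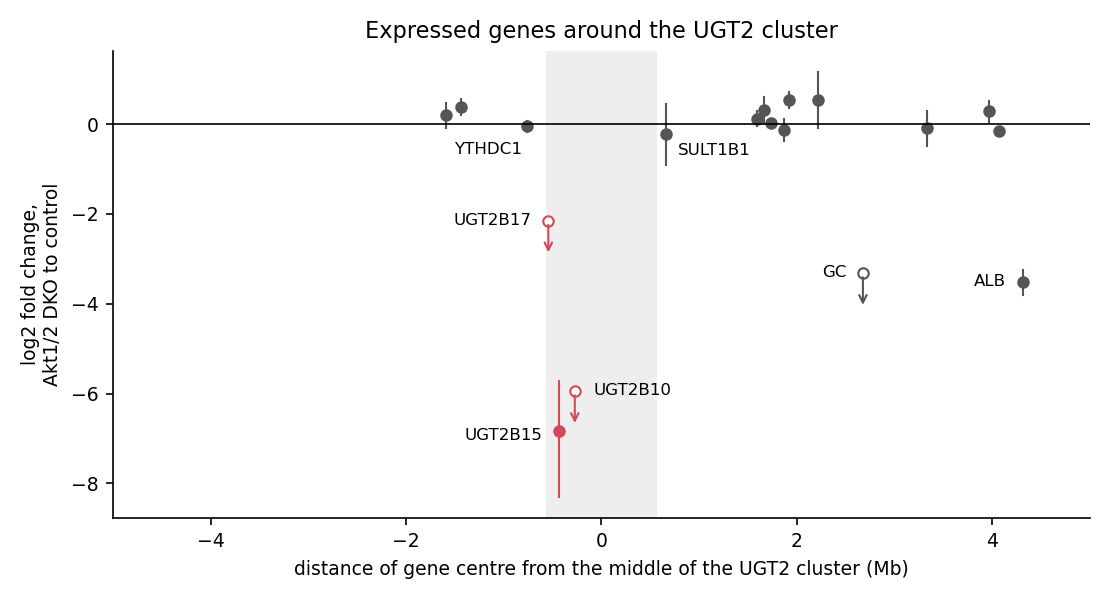
Log2 fold change, Akt1/2 DKO to control, of genes with at least 10 reads within 5 Mb of the middle of the UGT2 cluster, by distance in Mb, with the cluster shaded and its genes in red, bars for the 95% counting interval and open circles with arrows for bounds. UGT2B15, UGT2B10 and UGT2B17 lie far below 0, YTHDC1 and SULT1B1 beside the cluster lie near 0, and GC and ALB are the other low points.

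Beside the other genes, USP40 and HJURP, which flank the UGT1A locus, had 761 and 858 reads in control and 598 and 811 in Akt1/2 DKO, 1.41-fold and 1.17-fold lower. ARSJ, a sulfatase 619 kb from UGT8, had 95 and 40 reads, 2.63-fold lower, and TRAM1L1, 2405 kb away on the other side, had 76 and 108. LIAS, a lipoic acid synthase beside UGDH, had 149 and 248 reads, a log2 fold change of 0.59, and SMIM14 on the other side had 832 and 738. The neighbours of UGP2, WDPCP with 111 and 165 reads and VPS54 with 398 and 538, were 1.34-fold and 1.22-fold higher. Of these nearest neighbours with at least 50 reads, ARSJ beside UGT8 was at least 1.5-fold lower and LIAS beside UGDH at least 1.5-fold higher. NDST4, 150 kb from UGT8 and under that limit, had 0 reads in control and 28 in Akt1/2 DKO, at least 8.42-fold higher.

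The rest of the donor pathway was counted beside UGDH. Of 28 genes that make, carry or compete for UDP-glucuronic acid and UDP-glucose, 26 had at least 10 reads, 3 were at least 1.5-fold higher, 4 lower and 19 between, with a median log2 fold change of -0.07 beside 0.01 for all genes. Against the 15.9% of all genes that were higher and the 15.0% that were lower, these counts do not set the list apart. GYS1, which draws UDP-glucose into glycogen, had 1336 reads in control and 7573 in Akt1/2 DKO, 5.11-fold higher. HK2, a hexokinase, had 953 and 2227 reads, 2.11-fold higher.
On the lower side, XYLB of the glucuronate pathway had 286 and 128 reads, 2.48-fold lower, and lies on chromosome 3, where the median log2 fold change was -0.53 over 666 genes. SLC35D2, a nucleotide sugar carrier, had 140 and 66 reads, 2.35-fold lower. SORD, the sorbitol dehydrogenase, had 1749 and 951 reads, 2.04-fold lower.
Hyaluronan synthases, which use the same donor, split by direction at few reads, with HAS2 at 1 and 72 reads and HAS3 at 64 and 35, both named after their values were seen. GUSB, the glucuronidase that reverses the reaction, had 777 reads in control and 705 in Akt1/2 DKO, 1.22-fold lower, SLC35D1, a carrier of UDP-glucuronic acid into the endoplasmic reticulum, had 364 and 348, and PGM1, which makes glucose 1-phosphate for UGP2, had 273 and 381, 1.26-fold higher. UXS1, which turns UDP-glucuronic acid into UDP-xylose, had 214 and 227 reads. SLC35D1, GUSB and UXS1 therefore stood within 1.5-fold of control where UGDH did not, while SLC35D2, XYLB and SORD, named above, were lower by more than that.

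The next list held 20 genes, transcription factors reported to act on UGT genes together with KEAP1, which is not a transcription factor. Of these, 19 were in the table and 11, KEAP1 included, had at least 10 reads, with 1 higher, 2 lower and 8 between, and a median log2 fold change of -0.01. Beside 15.9% higher and 15.0% lower over all genes, these counts do not set the list apart. RXRA, the partner of many nuclear receptors, had 242 and 141 reads, 1.90-fold lower, and PPARA, a receptor for fatty acids, had 306 and 222, 1.53-fold lower. AHR, the dioxin receptor, which acts on UGT1A6, had 120 and 416 reads, 3.13-fold higher.
FOXA1, a known regulator of UGT2B15 and UGT2B17 in prostate cells, had 2511 and 3289 reads, 1.18-fold higher. HNF4A had 0 reads in both libraries, and its relative HNF4G, named after its values were seen, had 267 and 124, 2.39-fold lower. Whether any of these factors has a part in the UGT levels was not tested.

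**Figure D4:**
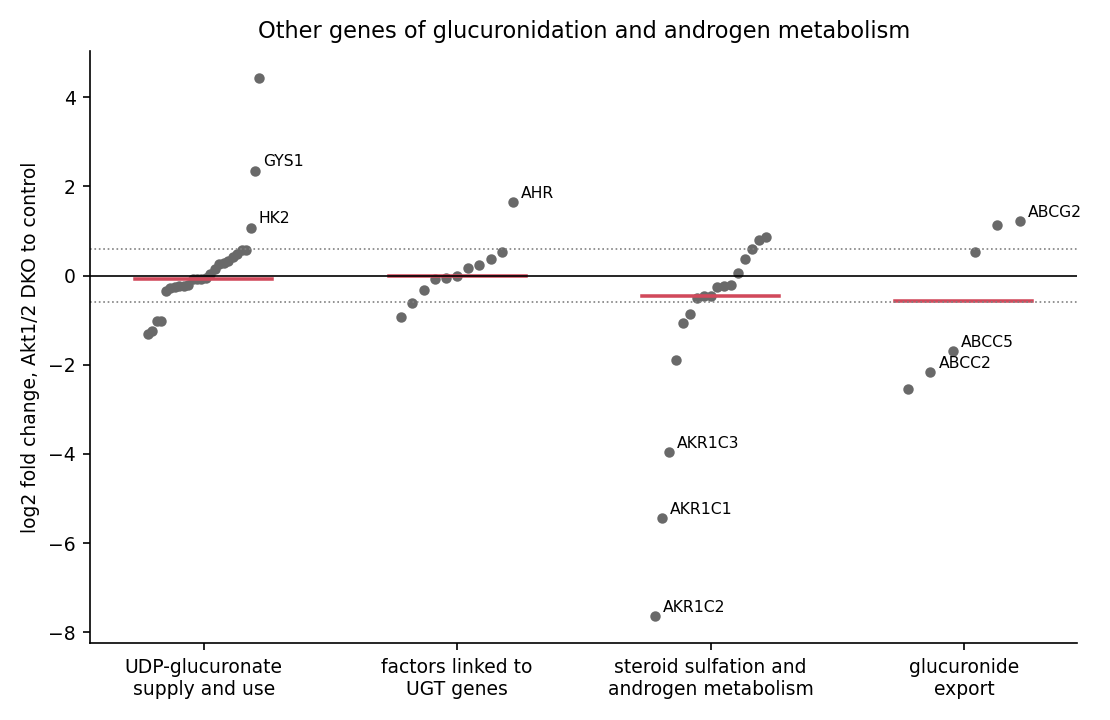
Log2 fold change, Akt1/2 DKO to control, of the genes with at least 10 reads in 4 lists, where each point is a gene, red lines are list medians and dotted lines mark 1.5-fold. The points for AKR1C1 and HAS2, with fewer than 3 reads in a library, are drawn against the floor of 3 reads, and each list has points on both sides of 0.

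Steroids reach the UGT enzymes after reduction or compete for sulfation, and these genes split by direction. Of 29 genes of steroid sulfation and androgen metabolism, 17 had at least 10 reads, with 6 lower, 3 higher and 8 between, and a median log2 fold change of -0.47. The shares over all genes were 15.0% lower and 15.9% higher. AKR1C1 and AKR1C2 were among those that reached the minimum only through control reads. Ketosteroid reductases of the AKR1C family accounted for the largest differences. AKR1C1 and AKR1C2 reduce progestins and dihydrotestosterone to weaker steroids, and AKR1C3 chiefly forms testosterone from androstenedione. AKR1C2 had 540 reads in control and 3 in Akt1/2 DKO, 200-fold lower (95% interval 67.9 to 971), AKR1C1 had 117 and 2, a ratio of 64.9 from the reads themselves, without the floor (95% interval 17.6 to 542), and AKR1C3 had 295 and 21, 15.6-fold lower. AKR1C genes are close copies too, and AKR1C1, AKR1C2 and AKR1C3 together had 952 and 26 reads, 40.6-fold lower (95% interval 27.5 to 62.5).
PAPSS1, which makes the sulfate donor, had 3262 and 1721 reads, 2.10-fold lower, RDH5 had 90 and 55, 1.81-fold lower, and the sulfotransferase SULT1A1 had 101 and 204, 1.82-fold higher. The AKR1C and UGT2B enzymes were both lower, while the sulfate donor enzyme and SULT1A1 differed in opposite directions.

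The 6 transporters that export glucuronides gave 3 lower, 2 higher and 1 between, with a median log2 fold change of -0.58. Over all genes the shares were 15.0% lower and 15.9% higher. ABCC2 had 178 and 44 reads, 4.49-fold lower, and ABCC5, on chromosome 3, had 1321 and 454, 3.23-fold lower. ABCC4 had 99 and 240 reads, 2.19-fold higher, and ABCG2 had 51 and 131, 2.32-fold higher. Transport genes thus were found on both sides.

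Markers of other cells were read beside the UGT genes, because UGT enzymes are chiefly genes of liver and intestine. The 10 luminal prostate markers reported here all had at least 10 reads, 7 lower and 2 higher, with a summed level of 18599 reads in control and 23715 in Akt1/2 DKO. For these and the marker lists below, the shares over all genes were 15.0% lower and 15.9% higher. KLK3 had 184 and 29 reads, 7.03-fold lower, STEAP2 1482 and 353, 4.65-fold lower, and TMPRSS2 219 and 53, 4.58-fold lower, all androgen-induced genes. SLC45A3 had 203 and 52 reads, 4.33-fold lower, KLK2 had 366 and 114, 3.56-fold lower, and KLK4 had 2430 and 839, 3.21-fold lower. The higher 2 were the keratins KRT8, with 6408 and 12815 reads, and KRT18, with 2433 and 5306, 1.80-fold and 1.97-fold higher. They set the direction of the sum, while the median log2 fold change of the 10 was -1.76. Both keratins and HOXB13, with 2363 and 865 reads and 3.03-fold lower, are named after their values were seen.
Of 12 hepatocyte markers, 2 had at least 10 reads, ALB and TF, and both were lower. TF, with 10 and 0 reads, reached the minimum through control reads alone. The sum went from 1264 to 121 reads and was nearly all ALB, while APOB, APOA2, FGA, FGB, FGG, SERPINA1 and CYP3A4 had 0 reads in both libraries. Of 9 enterocyte markers in the table, 4 had at least 10 reads and all 4 were lower, beside 15.0% of all genes. Their sum was 2746 in control and 574 in Akt1/2 DKO. CDH17 and SI reached the minimum only through control reads, so nothing is read from the count.
VIL1, for villin, had 2268 and 545 reads, 4.61-fold lower, and CDH17, an intestinal cadherin, had 236 and 0, at least 87.2-fold lower. SI, for sucrase-isomaltase, had 182 and 2 reads and lies on chromosome 3, and CDX2, FABP1 and APOA4 had 0 in both. Of 8 fibroblast markers, 5 had at least 10 reads, with 3 higher and 2 lower and a median log2 fold change of 0.80, while their sum went from 1043 to 252 reads because VIM went from 897 to 84. COL1A1 had 55 and 106 reads, 1.74-fold higher. The other higher genes rest on few reads, LUM with 5 and 35 and CAV1 with 6 and 12, whose log2 interval, -0.67 to 2.55, includes no change. COL3A1, with 74 and 9 reads, was the other lower gene. LUM, CAV1 and COL3A1 are named after their values were seen. Of 6 basal epithelium markers, 3 had at least 10 reads, with DST higher, KRT15 lower and ITGB4 between, and the sum, 169 and 809, was nearly all DST, with 149 and 803. The defining basal markers KRT5 and TP63 had 0 reads in both libraries. Of 6 leukocyte markers, 2 had at least 10 reads, with 1 higher and 1 between, and the sum was 56 and 80. Several genes of gut and, for ALB, of liver were lower in the same library as the UGT genes. This describes the named genes only, and their part in the UGT result was not tested.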

How the data were processed

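RNA from 1 control and 1 Akt1/2 DKO library was compared. For each gene the authors deposited an estimated count, not normalized, and an FPKM value, scaled by transcript length and library size. Their processing notes name fastp 0.20.0, TopHat, Cufflinks, edgeR and GRCh38.p10. The role of each tool, and the counting settings, are not given in the sources used here. The authors' deposited comparison columns (log2 fold change, p-value and FDR) and ontology summary were not used, and 0 other per-sample columns were found.

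Estimated counts, fractional for 9.44% of genes in control and 9.24% in Akt1/2 DKO, were rounded to whole reads. Of 19607 genes, 13318 had 10 or more reads over both libraries. TMM factors came from edgeR 4.0.16 in R 4.3.3, and exact Clopper-Pearson intervals from scipy 1.17.1 in Python 3.11.15. The steps were also run on simulated counts that held counting error only. That run does not cover the spread between replicates or the division of reads among close copies. Positions are from GENCODE release 29 (GRCh38), with 19571 identifiers found. Coding sequences, aligned with Biopython 1.88, took the place of proteins. Promoters are from RefSeq (GRCh38.p14).

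The genes and all lists were chosen with earlier results of these data known. A gene without reads in a library can reach 10 reads only through the other, so the counts per list are descriptions. Some genes are not reported here and were left out of the lists. Genes named are the 10, AKT1, AKT2, other UGT genes with at least 10 reads, FOXA1, GUSB, SLC35D1, UXS1, PGM1, the nearest neighbours with at least 50 reads, and from each list up to 6 genes with the largest changes among those with at least 100 reads and 1.5-fold. Alternatives were total count, upper-quartile and DESeq2 1.42.0 scaling, FPKM, a prior count of 1 in place of the floor, and other read filters, fold thresholds, sums and window lengths. Calls whose interval excludes no change were counted too. No other floor was tried.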

Additional observations from a re-analysis of the deposited data

How the results depend on the processing

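Of 40 fold values recomputed under other scalings, with FPKM or with a prior count of 1, 0 had the opposite sign, and those of UGT2B15, UGT8, UGDH and UGP2 lay within the interval of the reported value. For genes at 0 in Akt1/2 DKO that interval has no lower end, and a prior count of 1 in place of the floor took log2 fold changes from -1.37 to -3.15 for UGT2B7 and UGT1A6, from -0.89 to -2.73 for UGT2B11, from -2.15 to -3.85 for UGT2B17 and from -5.95 to -7.54 for UGT2B10. With that prior count UGT2B15 stood at -6.62, so UGT2B10 was then the lower of the pair and their order depends on how 0 reads are handled. The number of the 10 genes at least 1.5-fold lower was 3 with the deposited FPKM, because genes listed at 0 give no ratio, and 8 without a read filter. UGT2B7, UGT2B11 and UGT1A6, which entered without the filter, had control reads only and stand at bounds. Shares over all genes were not computed for these 2 settings, so nothing is read from the counts. With at least 10 reads, 2 neighbours were at least 1.5-fold higher, since NDST4 then entered, beside 15.9% of all genes. NDST4 had reads in Akt1/2 DKO only, so nothing is read from this count. Outside the 10 genes and the marker lists, 17 genes were at least 1.5-fold lower and 9 higher, beside 15.0% and 15.9% of all genes. Under other scalings or with FPKM these counts were 15 to 17 and 9 to 12, so some calls near the threshold depend on the scaling. The share of windows found in another UGT transcript was 27.5% for UGT2B15 and 27.8% for UGT2B17 at 50 bases, and 4.88% for both at 150 bases. No paired analysis was possible because there is 1 library for control and 1 for Akt1/2 DKO. Depth limits UGT2B7, UGT2B11, UGT2B28 and UGT1A6, which had 7 or fewer control reads.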
